A study of Mus musculus with 36 samples.

Results

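Adgrg7, Sostdc1, Itih2, Plcb4, Osbpl6, Dtna, Tmem45a and Pygo1 are 8 mouse genes whose RNA already differed between primary prostate organoids with a FOXA1 construct and those with the empty vector at day 0, the first time point. They are 8 of the 45232 genes in the deposited tables, and were chosen by that day 0 difference, so every day 0 value below is a description. Days 1 and 11 were not part of that rule, although their results were already known for Adgrg7 and Sostdc1. Their comparisons were tested. The same sorted cells supplied all days, so a difference that lasts from day 0 is not independent support for it. All 8 genes passed the filter on low counts, which left 18176 genes.

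The organoids are cultures of mouse prostate epithelium. Cells had been infected with a pCW vector, whose insert is switched on by doxycycline, and sorted for the DsRED marker of that vector. The insert was wild-type FOXA1 (WT), or its variants FE255del or R219S, and control cells had the vector alone (EV, called an empty vehicle by the submitters). RNA was taken on days 0, 1 and 11 from 3 cultures of every construct. That makes 36 polyadenylated RNA libraries in 12 groups. The labels give doxycycline at 500 ng/mL for every library, those of day 0 included. Only the names of the deposited data tell that day 0 stands for cultures without it, so this point is not settled by the labels. The 3 replicates of a construct were seeded from its own sorted cells, so p-values measure the spread between cultures of 1 sorted population, and a difference between constructs cannot be told apart from a difference between the sorted populations. Strain, age and the species of the FOXA1 insert are not given in the labels.

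Library totals ran from 61476938 to 102385337 counts, and no pair of replicates agreed within sampling noise. Foxa1 here means reads counted on the mouse gene. The species of the insert is not given, so how far these reads include the insert is not known. Foxa1 lay at 227.2 to 237.1 CPM (a count scaled to library size) in EV at day 0. On that day WT held 252.9 to 258.8 CPM, FE255del 230.3 to 236.9 and R219S 222.2 to 234.7. At day 1 it lay at 221.8 to 231.7 CPM in EV, and the ranges were 410.2 to 419.4 for WT, 290.6 to 343.8 for FE255del and 302.7 to 311.9 for R219S. On day 11 Foxa1 lay at 216.8 to 240.7 CPM in EV, and at 252.6 to 280.2 for WT, 266.4 to 316.1 for FE255del and 242.4 to 300.6 for R219S. The labelled tissue was checked against marker genes. The epithelial genes Epcam and Cdh1 together held 1617 to 3112 CPM in every library, while the secretory gene Pbsn had no counts in any. The sum of basal cell keratins and Trp63 (4 genes) moved with the constructs. At day 0 it was 6966 to 7144 CPM for EV and 5234 to 5761 for WT. FE255del then had 4933 to 5311 and R219S 6812 to 7039 CPM. Day 1 sums were 7160 to 7908, 2476 to 2596, 1261 to 1368 and 4418 to 4507 CPM in the same order. Krt5 and Krt14, at up to 6655 and 3126 CPM, make up most of this sum. Krt15 was highest in a FE255del library of day 11 (379.1 CPM), so the sum does not describe every gene of the list. On day 11 the basal sum was 8592 to 9331 CPM for EV, 4184 to 5142 for WT, 4469 to 4620 for FE255del and 9542 to 10544 for R219S, which then lay above EV. Luminal genes (6) summed on day 1 to 1207 to 1297 CPM for EV, 658 to 714.4 for WT, 830.2 to 860 for FE255del and 752.6 to 795.2 for R219S. Of the other lists, 7 fibroblast genes summed to 33.03 to 48.02 CPM in R219S at day 11, mostly Dcn, against at most 20.25 CPM in other groups, with Col1a2 at no more than 0.0525 CPM anywhere. On that day 5 smooth muscle genes, mostly Acta2, summed to 6.318 to 11.62 CPM for EV and 27.54 to 29.68 for WT. They summed to 8.177 to 13.74 CPM for FE255del and 26.79 to 33.21 for R219S, with Myh11 at no more than 0.843 CPM anywhere. On day 1, 4 endothelial genes, mostly Pecam1 in WT and FE255del, summed to 4.224 to 4.74 CPM in WT and 6.464 to 7.073 in FE255del. EV then had 0.5692 to 0.8166 and R219S 0.381 to 0.5074 CPM. The part of these lists in the results below was not tested. In bulk RNA, fewer cells of a type and less RNA per cell cannot be told apart.

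FOXA1 is a pioneer transcription factor: its forkhead domain binds DNA in closed chromatin and helps other factors, among them the androgen receptor in prostate epithelium, to reach their sites. Both variants change the forkhead domain. The genes described here belong to several systems. Adgrg7 and Tmem45a encode membrane proteins, Sostdc1 and Itih2 secreted ones, Plcb4 and Osbpl6 act in lipid signalling and lipid transport, Dtna encodes a scaffold protein at the membrane, and Pygo1 a nuclear cofactor of Wnt signalling.

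Promoter sequence was available for 6 genes that can be printed here, and 4 windows are shown, each the 250 bases before a transcription start from RefSeq (GRCm38.p6), written 5′ to 3′ on the strand of the gene. Adgrg7 (chr16:56795859-56796108, minus strand) and Tmem45a (chr16:56886164-56886413, minus strand) are shown because these adjacent genes were both low in the FOXA1 lines. Itih2 (chr2:10130684-10130933, minus strand) and the second start of Plcb4 (chr2:135764588-135764837, plus strand) are shown because a searched motif was found there. Capitals mark matches to TGACTCA (AP-1), GGAATG (TEAD) or TGTTTGC (forkhead).
Adgrg7: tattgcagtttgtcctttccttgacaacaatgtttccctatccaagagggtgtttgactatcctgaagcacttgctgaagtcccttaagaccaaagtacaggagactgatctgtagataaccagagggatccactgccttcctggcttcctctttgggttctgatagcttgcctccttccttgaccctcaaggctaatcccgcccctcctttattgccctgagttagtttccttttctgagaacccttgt
Tmem45a: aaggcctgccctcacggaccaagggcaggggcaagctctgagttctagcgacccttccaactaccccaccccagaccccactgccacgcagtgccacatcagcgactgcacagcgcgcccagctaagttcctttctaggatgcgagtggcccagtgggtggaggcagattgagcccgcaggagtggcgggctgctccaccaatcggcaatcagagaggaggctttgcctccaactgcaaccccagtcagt
Itih2: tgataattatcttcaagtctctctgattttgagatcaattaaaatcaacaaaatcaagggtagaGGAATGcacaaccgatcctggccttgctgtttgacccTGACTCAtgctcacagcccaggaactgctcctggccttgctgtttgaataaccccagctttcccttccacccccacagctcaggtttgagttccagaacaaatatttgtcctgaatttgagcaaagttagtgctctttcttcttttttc
Plcb4: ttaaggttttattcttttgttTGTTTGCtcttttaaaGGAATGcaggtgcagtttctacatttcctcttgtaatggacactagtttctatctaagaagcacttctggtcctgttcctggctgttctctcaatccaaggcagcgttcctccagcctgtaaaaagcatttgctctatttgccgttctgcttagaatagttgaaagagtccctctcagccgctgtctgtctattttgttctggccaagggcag
The motifs were searched on both strands, together with TGTTTAC (forkhead) and CTTTGAT (TCF/LEF). The Itih2 window holds the AP-1 letters 149 bases before the start and the TEAD letters 186 bases before it. The second Plcb4 window holds the forkhead letters at 229 bases and the TEAD letters at 213 bases before the start. No searched motif lies in the Adgrg7 or Tmem45a window. The windows that were searched but are not shown also held none. These are the first start of Plcb4, the first and second start of Osbpl6, and Pygo1. Of 32851 mouse promoters with the same length, 4.46% hold TGACTCA, 12.6% GGAATG, 4.3% TGTTTGC, 3.17% TGTTTAC and 3.21% CTTTGAT. A match describes the letters in this window only.

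At day 0, Adgrg7, Sostdc1 and Tmem45a were lower than EV in all 3 FOXA1 lines, and Itih2, Plcb4, Osbpl6 and Dtna were higher in WT and FE255del. Pygo1 was barely detected on that day. In R219S Itih2, Dtna and Pygo1 overlapped EV, Plcb4 was somewhat higher and Osbpl6 lower. The threshold of the test (adjusted p under 0.05) was passed by 8 of the 8 genes in WT, 7 in FE255del and 5 in R219S, where 22.7%, 20.8% and 20.1% of all genes tested passed. These counts only restate the choice of the genes. Day 0 differences were common in these lines: 7531 of 18176 genes (41.4%) passed against EV in at least 1 construct. The largest day 0 fold of every member was at least 2.53 on the log2 scale, which 271 genes reached.

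**Figure D1:**
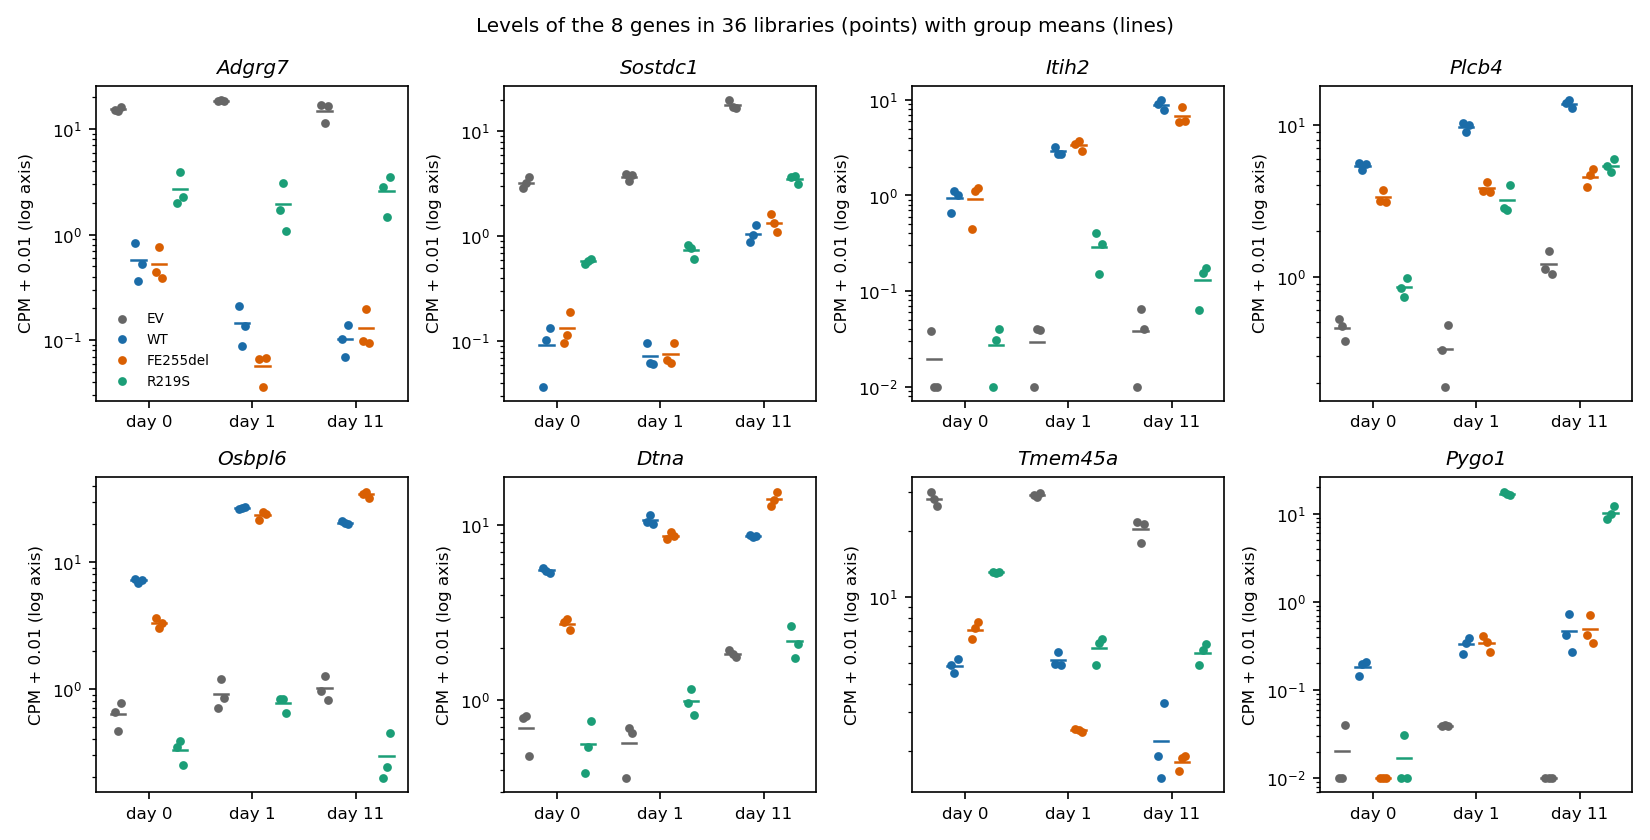
Level of each of the 8 genes (CPM plus 0.01, log axis) by day, with 1 point per library, a line at each group mean of 3 libraries and colours for EV (grey), WT (blue), FE255del (orange) and R219S (green). Adgrg7, Sostdc1 and Tmem45a lay highest in EV on every day, and Pygo1 lay highest in R219S on days 1 and 11.

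On day 1, 5 of the 8 genes were higher and 3 lower than EV in WT, where 29.6% of all genes were higher and 30.9% lower. The split was again 5 and 3 in FE255del (25.5% and 27.7% of all genes), and in R219S 4 genes were higher and 3 lower (23.2% and 25.3%), with Osbpl6 not passing. By day 11 it was 5 and 3 in WT (21.0% and 19.7%), 5 and 3 in FE255del (22.6% and 19.6%), and 3 and 4 in R219S (17.7% and 14.4%), with Dtna not passing. The median log2 fold change of the 8 genes was 3.82 in WT, 3.49 in FE255del and 0.28 in R219S on day 1, and 2.88, 2.42 and -0.79 on day 11, where the median over all genes lay between -0.04 and 0.01. These day 11 medians are the same with Pygo1 at its lower bound. The medians depend on how many genes of each direction were chosen at day 0, and show no common shift. In R219S on day 1, single genes ran from -3.25 (Adgrg7) to 9.08 (Pygo1). All comparisons with EV on 1 day share the same 3 EV libraries.

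**Figure D2:**
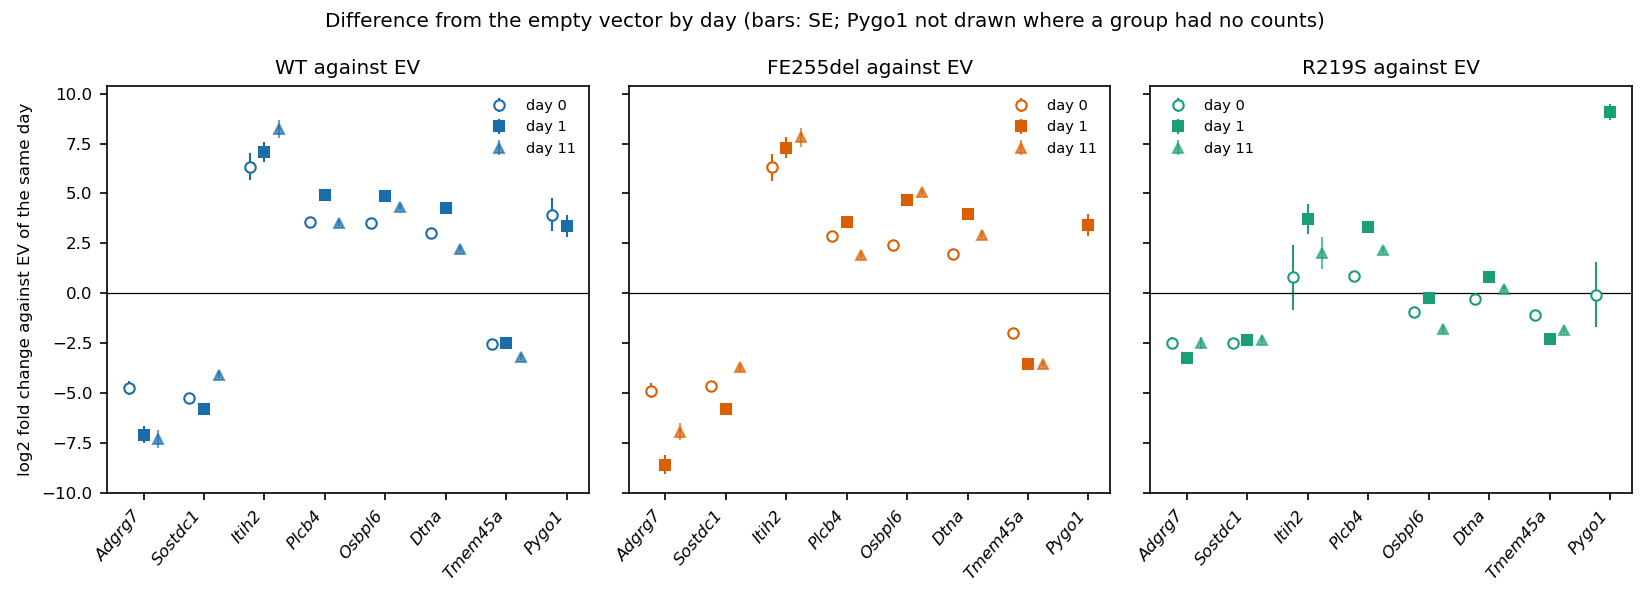
Log2 fold change against EV of the same day (y axis) for the 8 genes in WT, FE255del and R219S, with open circles for day 0, squares for day 1, triangles for day 11 and bars for the SE. The Adgrg7, Sostdc1 and Tmem45a points lie below 0 in all 3 panels, and Pygo1 in R219S at day 1 stands at 9.08.

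Adgrg7, an orphan adhesion G protein-coupled receptor (also called Gpr128; ENSMUSG00000022755.4, chr16:56724609-56795855, minus strand), was lower than EV in all 3 lines on every day. The 3 EV libraries at day 0 held 15.26, 14.7 and 16.35 CPM. WT held 0.827, 0.356 and 0.512 CPM, FE255del 0.4375, 0.7475 and 0.382 CPM, and R219S 1.975, 3.896 and 2.282 CPM. Every EV library thus lay above every library of the FOXA1 lines, and R219S lay between EV and the other lines. On day 1 EV stood at 18.6 ± 0.167 CPM (SD, n = 3) and R219S at 1.95 ± 1.01, while WT (0.1341 ± 0.0613) and FE255del (0.0469 ± 0.0178) had only 32 and 10 counts over their 3 libraries. Against EV the log2 fold change was -3.25 ± 0.31 in R219S (SE; adjusted p = 5.0e-10). By day 11 EV stood at 14.96 ± 3.15 CPM, R219S at 2.60 ± 1.04, FE255del at 0.1205 ± 0.059 and WT at 0.0936 ± 0.0351. R219S was again lower than EV (-2.52 ± 0.30, adjusted p = 7.8e-08), and so were WT (-7.29 ± 0.45, adjusted p = 1.7e-13) and FE255del (-6.94 ± 0.44, adjusted p = 1.9e-13). The difference between FE255del and WT did not pass on either day: it was -1.50 ± 0.96 on day 1 (adjusted p = 0.217), where the libraries did not overlap and DESeq2 called it (adjusted p = 0.040), and 0.35 ± 0.84 on day 11 (adjusted p = 0.840). R219S exceeded WT by 3.83 ± 0.47 on day 1 (adjusted p = 5.3e-08) and by 4.77 ± 0.50 on day 11 (adjusted p = 3.6e-09). Between day 1 and day 11 no construct passed the test for this gene. R219S passed without its day 1 replicate 2 (adjusted p = 0.019). In EV and FE255del the libraries of the 2 days did not overlap, in FE255del on 10 and 27 counts.

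Tmem45a, which encodes a multi-pass membrane protein known from the epidermis (ENSMUSG00000022754.5, chr16:56805161-56886166, minus strand), is the next gene on the chromosome, 9305 bases from Adgrg7. At day 0 the EV libraries held 30.2, 27.95 and 25.98 CPM, the WT libraries 4.89, 4.50 and 5.19, the FE255del libraries 6.45, 7.23 and 7.66, and the R219S libraries 13.05, 12.83 and 13.03. None of the 4 groups overlapped another. On day 1 the order of FE255del and WT was the opposite: EV was at 29.2 ± 0.591 CPM, R219S at 5.83 ± 0.823, WT at 5.15 ± 0.396 and FE255del at 2.46 ± 0.0483. FE255del was lower than WT (-1.06 ± 0.15, adjusted p = 7.9e-07), while R219S and WT overlapped (0.18 ± 0.14, adjusted p = 0.287). Against EV the log2 fold change was -2.50 ± 0.14 for WT (adjusted p = 1.2e-16), -3.57 ± 0.15 for FE255del (adjusted p = 1.4e-19) and -2.32 ± 0.14 for R219S (adjusted p = 1.4e-15). Day 11 levels were 20.4 ± 2.35 CPM in EV, 5.57 ± 0.609 in R219S, 2.21 ± 0.939 in WT and 1.77 ± 0.142 in FE255del, and R219S was above WT (1.34 ± 0.15, adjusted p = 8.0e-09). WT and FE255del overlapped (-0.32 ± 0.17, adjusted p = 0.232). From day 1 to day 11 the gene fell in EV (-0.52 ± 0.13, adjusted p = 0.0012), in WT (-1.23 ± 0.15, adjusted p = 3.4e-08) and in FE255del (-0.48 ± 0.17, adjusted p = 0.018), and R219S did not pass (-0.07 ± 0.14, adjusted p = 0.716). The FE255del call did not pass without FE255del day 11 replicate 1 (adjusted p = 0.077).

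Sostdc1 encodes a secreted antagonist of BMP and Wnt ligands (ENSMUSG00000036169.5, chr12:36314139-36318452, plus strand). At day 0 the EV libraries held 2.88, 3.22 and 3.63 CPM and the R219S libraries 0.540, 0.573 and 0.605. WT held 0.0271, 0.0928 and 0.1248 CPM and FE255del 0.0875, 0.1049 and 0.1784, which overlapped each other and lay below R219S. The order EV, R219S, then WT and FE255del held on days 1 and 11. Day 1 levels were 3.70 ± 0.296 CPM in EV, 0.726 ± 0.114 in R219S, 0.0654 ± 0.0188 in FE255del and 0.0630 ± 0.0209 in WT. R219S lay below EV (-2.35 ± 0.18, adjusted p = 3.0e-13) and above WT (3.49 ± 0.30, adjusted p = 3.2e-12). Day 11 levels were 17.81 ± 1.67 CPM in EV, 3.53 ± 0.316 in R219S, 1.34 ± 0.254 in FE255del and 1.05 ± 0.201 in WT. Sostdc1 thus rose from day 1 to day 11 in all 4 constructs: by 2.27 ± 0.16 for EV (adjusted p = 1.1e-13), 4.01 ± 0.29 for WT (adjusted p = 3.4e-14), 4.34 ± 0.28 for FE255del (adjusted p = 4.5e-15) and 2.28 ± 0.18 for R219S (adjusted p = 5.1e-13). At day 11 it still lay below EV, with a fold of -4.09 ± 0.18 for WT (adjusted p = 2.2e-19), -3.72 ± 0.17 for FE255del (adjusted p = 8.6e-19) and -2.33 ± 0.16 for R219S (adjusted p = 3.8e-14). FE255del and WT did not pass against each other on day 1 (0.04 ± 0.49, adjusted p = 0.972) or day 11 (0.36 ± 0.18, adjusted p = 0.182).

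Itih2 encodes a heavy chain of the inter-alpha-inhibitor family, plasma proteins made mainly in the liver that bind hyaluronan in the matrix (ENSMUSG00000037254.15, chr2:10094593-10131396, minus strand). It was almost absent in EV, with 2, 4 and 6 counts over the 3 libraries on days 0, 1 and 11. At day 0 the WT libraries held 0.650, 1.114 and 0.999 CPM and the FE255del libraries 0.4375, 1.102 and 1.173, and these 2 groups overlapped. Against the 2 EV counts the ratio was 94.6 in WT (95% exact interval 25.8 to 786) and 95.4 in FE255del (26.1 to 793). R219S had 4 counts. As Itih2 was chosen by its day 0 difference, these intervals describe counting error only and are not a test. On day 1 Itih2 stood at 2.88 ± 0.309 CPM in WT, 3.34 ± 0.366 in FE255del and 0.279 ± 0.128 in R219S, against 0.0196 ± 0.017 in EV. The excess over EV was 7.08 ± 0.52 for WT (adjusted p = 7.9e-14), 7.30 ± 0.52 for FE255del (adjusted p = 4.4e-14) and 3.72 ± 0.74 for R219S (adjusted p = 4.8e-05). From day 1 to day 11 it rose in WT to 8.87 ± 1.08 CPM (1.62 ± 0.26, adjusted p = 2.5e-06) and in FE255del to 6.76 ± 1.4 CPM (1.02 ± 0.26, adjusted p = 0.0012). In R219S it fell to 0.1211 ± 0.0595 CPM (-1.20 ± 0.49, adjusted p = 0.035), where the groups overlap, and that call ended under 6 of 14 other settings (adjusted p up to 0.189), among them without R219S day 1 replicate 1 or 3, or day 11 replicate 1. The R219S excess over EV at day 11 (2.03 ± 0.80, adjusted p = 0.043) also rests on groups that overlap, and 7 of 14 other settings ended it (adjusted p from 0.010 to 0.174), among them leaving out EV replicate 1 or 3, or R219S replicate 2 or 3, of that day. WT and FE255del did not pass against each other on day 1 (0.21 ± 0.26, adjusted p = 0.562) or day 11 (-0.39 ± 0.25, adjusted p = 0.328).

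Plcb4 encodes a beta-class phospholipase C, which splits a membrane phosphoinositide when Gq-coupled receptors are active (ENSMUSG00000039943.13, chr2:135659011-136014593, plus strand). At day 0 the EV libraries held 0.513, 0.4655 and 0.366 CPM, the R219S libraries 0.827, 0.719 and 0.967, the FE255del libraries 3.15, 3.73 and 3.08, and the WT libraries 5.637, 4.997 and 5.518. The 4 groups did not overlap. Day 1 levels were 0.322 ± 0.144 CPM in EV, 3.195 ± 0.723 in R219S, 3.81 ± 0.343 in FE255del and 9.72 ± 0.628 in WT. R219S, with 182 counts at day 0 and 690 on day 1, now overlapped FE255del (-0.25 ± 0.15, adjusted p = 0.175), and both lay below WT, with folds of -1.60 ± 0.15 for R219S (adjusted p = 2.7e-11) and -1.35 ± 0.15 for FE255del (adjusted p = 3.2e-09). The R219S to FE255del difference passed without R219S day 1 replicate 3 (-0.46, adjusted p = 0.020). Against EV the day 1 excess was 4.91 ± 0.20 for WT (adjusted p = 4.6e-21), 3.56 ± 0.21 for FE255del (adjusted p = 1.0e-16) and 3.30 ± 0.21 for R219S (adjusted p = 1.3e-15). By day 11 EV itself had risen to 1.2 ± 0.23 CPM (1.89 ± 0.23, adjusted p = 1.4e-08). WT was at 13.77 ± 0.818 CPM, R219S at 5.39 ± 0.524 and FE255del at 4.53 ± 0.606, and the last 2 overlapped (0.25 ± 0.15, adjusted p = 0.169). The excess over EV was then 3.52 ± 0.17 for WT (adjusted p = 2.6e-18), 1.91 ± 0.17 for FE255del (adjusted p = 1.3e-11) and 2.16 ± 0.17 for R219S (adjusted p = 9.7e-13).

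Osbpl6 encodes a member of the oxysterol-binding protein family, which carries lipids between membranes (ENSMUSG00000042359.15, chr2:76406508-76600647, plus strand). It separated WT and FE255del from R219S on every day. At day 0 the WT libraries held 7.33, 6.87 and 7.25 CPM and the FE255del libraries 3.59, 3.03 and 3.28. EV held 0.641, 0.451 and 0.762 CPM, and R219S 0.338, 0.375 and 0.242, below every EV library. On day 1 Osbpl6 stood at 26.67 ± 0.642 CPM in WT and 23.4 ± 1.68 in FE255del, against 0.906 ± 0.253 in EV and 0.758 ± 0.103 in R219S, where the last 2 overlapped (-0.26 ± 0.19, adjusted p = 0.295). The excess over EV was 4.88 ± 0.15 for WT (adjusted p = 1.9e-24) and 4.69 ± 0.15 for FE255del (adjusted p = 9.5e-24). FE255del and WT did not pass against each other (-0.19 ± 0.11, adjusted p = 0.185), although their libraries did not overlap and DESeq2 and the fit of these 2 groups alone called the difference, at an adjusted p of 0.032 and 0.020. On day 11 FE255del was above WT, at 34.2 ± 1.86 CPM against 20.37 ± 0.466, a difference of 0.75 ± 0.11 (adjusted p = 3.5e-06). The gene rose from day 1 in FE255del (0.55 ± 0.11, adjusted p = 7.4e-05) and fell in WT (-0.39 ± 0.11, adjusted p = 0.0031). In R219S it fell to 0.2865 ± 0.136 CPM (-1.40 ± 0.24, adjusted p = 5.4e-06), below EV at 1.002 ± 0.23 CPM (-1.81 ± 0.23, adjusted p = 6.5e-08). Osbpl6 thus lay above EV in WT and FE255del and below it in R219S at day 11.

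Dtna encodes alpha-dystrobrevin, a cytoplasmic scaffold of the dystrophin complex (ENSMUSG00000024302.12, chr18:23415135-23659715, plus strand). Of its 16930 exonic bases, 90 (0.532%) lie opposite an antisense RNA, and the strand setting of the counting is not given in the sources used here. At day 0 the WT libraries held 5.73, 5.48 and 5.36 CPM, the FE255del libraries 2.79, 2.90 and 2.52, the EV libraries 0.784, 0.804 and 0.472, and the R219S libraries 0.371, 0.531 and 0.756. EV and R219S overlapped. On day 1 Dtna stood at 10.72 ± 0.666 CPM in WT, 8.70 ± 0.397 in FE255del, 0.977 ± 0.17 in R219S and 0.558 ± 0.182 in EV. All 3 lines were higher than EV, by 4.26 ± 0.18 for WT (adjusted p = 2.3e-20), 3.96 ± 0.18 for FE255del (adjusted p = 2.8e-19) and 0.81 ± 0.21 for R219S (adjusted p = 0.0017). By day 11 FE255del was the highest, at 14.13 ± 1.31 CPM, above WT at 8.67 ± 0.119 (0.70 ± 0.14, adjusted p = 3.1e-04), as with Osbpl6. EV had risen to 1.84 ± 0.088 CPM (1.72 ± 0.20 since day 1, adjusted p = 6.9e-09) and R219S to 2.16 ± 0.449 CPM (1.15 ± 0.18, adjusted p = 1.0e-06), and these 2 overlapped (0.23 ± 0.17, adjusted p = 0.319). The excess over EV was 2.23 ± 0.16 for WT (adjusted p = 6.9e-14) and 2.94 ± 0.16 for FE255del (adjusted p = 5.3e-17).

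Pygo1 encodes a pygopus protein, which binds methylated histone H3 and, through BCL9, the beta-catenin complex that drives Wnt target genes (ENSMUSG00000034910.5, chr9:72925645-72952181, plus strand). Its entry among the day 0 differences rests on few reads: the WT libraries had 10, 12 and 16 counts, the FE255del libraries none, and EV and R219S 2 counts each over 3 libraries. The ratio of WT to EV was 18.0 (95% exact interval 4.64 to 154). As Pygo1 was chosen by its day 0 difference, this interval describes counting error only and is not a test. On days 1 and 11 R219S stood apart. On day 1 the R219S libraries held 17.74, 16.66 and 16.12 CPM (1257, 1182 and 1185 counts), against 2 counts in each EV library, a log2 fold change of 9.08 ± 0.38 (adjusted p = 5.9e-19). WT held 0.2489, 0.336 and 0.377 CPM and FE255del 0.395, 0.3425 and 0.261, both above EV (3.38 ± 0.55 and 3.43 ± 0.55, adjusted p = 2.6e-06 for each) and overlapping each other. R219S exceeded WT by 5.71 ± 0.27 (adjusted p = 9.3e-18) and FE255del by 5.65 ± 0.27 (adjusted p = 1.3e-17). On day 11 R219S held 8.73, 9.86 and 12.09 CPM, which had fallen since day 1 (-0.72 ± 0.20, adjusted p = 0.0027). EV had no counts on that day. Set against a floor of 3 counts over the EV libraries, Pygo1 was at least 727-fold higher in R219S, at least 32.4-fold higher in WT (0.462 ± 0.231 CPM) and at least 34.3-fold higher in FE255del (0.481 ± 0.193 CPM). In R219S the day 1 count of 3624 stood against 2 counts at day 0, a ratio of 1863 (95% exact interval 515 to 15390). Low counts in these tables are mostly even. If both reads of a pair were counted, the floor of 3 counts is too low, these "at least" folds are too high as bounds, and the intervals are too narrow.

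The 3 FOXA1 lines were also compared with each other. FE255del differed from WT in 2 of the 8 genes on day 1, Plcb4 and Tmem45a, both lower, where 41.7% of all genes differed. On day 11 it differed in 3 genes, Plcb4 lower and Osbpl6 and Dtna higher, where 17.7% of all genes differed. R219S differed from WT in 7 of 8 genes on day 1 (59.6% of all genes) and in 8 of 8 on day 11 (48.9%), and from FE255del in 7 of 8 on both days (52.5% and 49.2%). At day 11, Adgrg7, Sostdc1, Tmem45a and Pygo1 were higher in R219S than in WT, and Itih2 (-6.19 ± 0.38, adjusted p = 1.8e-15), Plcb4, Osbpl6 (-6.14 ± 0.17, adjusted p = 1.1e-24) and Dtna (adjusted p = 3.7e-13, 8.67 CPM in WT and 2.16 in R219S) were lower.

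From day 1 to day 11, 5 of the 8 genes changed in EV (44.5% of all genes), 5 in WT (55.9%), 5 in FE255del (53.0%) and 6 in R219S (58.5%). In EV these were Sostdc1, Plcb4 and Dtna, which rose, Tmem45a, which fell, and Pygo1, which had 6 counts on day 1 and none on day 11. The Pygo1 call ended under 9 of 14 other settings, among them without any 1 of these 6 EV libraries. The gap from EV, taken as a log2 fold change, was tested for its change between the 2 days. It moved for 6 genes in WT (44.5% of all genes), 4 in FE255del (34.6%) and 2 in R219S (29.4%). As a log2 fold, the excess of Plcb4 over EV shrank in all 3 lines, while EV itself rose. The change was -1.39 ± 0.27 for WT (adjusted p = 5.5e-05), -1.64 ± 0.27 for FE255del (adjusted p = 9.4e-06) and -1.14 ± 0.28 for R219S (adjusted p = 0.0014). Plcb4 itself also rose from day 1 to day 11 in WT (0.50 ± 0.14, adjusted p = 0.0029) and R219S (0.75 ± 0.15, adjusted p = 6.3e-05). In FE255del it did not pass (0.25 ± 0.15, adjusted p = 0.171). The log2 excess of Dtna shrank in WT (-2.03 ± 0.24, adjusted p = 1.4e-08) and FE255del (-1.02 ± 0.24, adjusted p = 0.0011). In CPM, Dtna rose from 8.70 to 14.13 in FE255del and from 0.558 to 1.84 in EV. The log2 shortfall of Sostdc1 shrank in WT (1.74 ± 0.36, adjusted p = 1.1e-04) and FE255del (2.07 ± 0.36, adjusted p = 1.6e-05), with no such change in R219S (0.01 ± 0.24, adjusted p = 0.996). In CPM the distance grew, as EV rose from 3.70 to 17.81 and WT from 0.0630 to 1.05.

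The genes around each member were read next, as the 3 nearest named protein-coding genes on each side, which gave 42 genes, 29 of them tested. On day 1, 12 of these were higher and 9 lower in WT, 14 and 9 in FE255del, and 11 and 4 in R219S, where 60.5%, 53.2% and 48.5% of all genes passed. By day 11 the numbers were 3 and 3, 7 and 5, and 4 and 4, where 40.6%, 42.2% and 32.1% passed. The counts are read against those shares, and nothing particular to the neighbours is drawn from them. Their median log2 fold change lay between -0.02 and 0.29 over these 6 comparisons. Next to Adgrg7 on the other side lies Tfg, 7158 bases away, which differed from EV on day 1 by -0.53 in WT (adjusted p = 3.4e-13) and -0.44 in FE255del (adjusted p = 5.3e-11), and by 0.19 in R219S (adjusted p = 2.5e-04). Tmem45a2, a relative of Tmem45a 150800 bases beyond it, was almost silent in EV (0.0295 CPM on day 1) and stood at 8.34 CPM in R219S on day 1 (8.07 ± 0.47, adjusted p = 6.6e-16) and 18.1 CPM on day 11 (8.85 ± 0.44, adjusted p = 6.2e-17), but did not pass in WT or FE255del. Mapre2, a microtubule end-binding gene and the next gene above Dtna at 92617 bases, was higher than EV on day 1 by 2.43 ± 0.08 for WT (adjusted p = 4.9e-24), 3.33 ± 0.08 for FE255del (adjusted p = 2.9e-27) and 0.87 ± 0.08 for R219S (adjusted p = 8.6e-12).

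**Figure D3:**
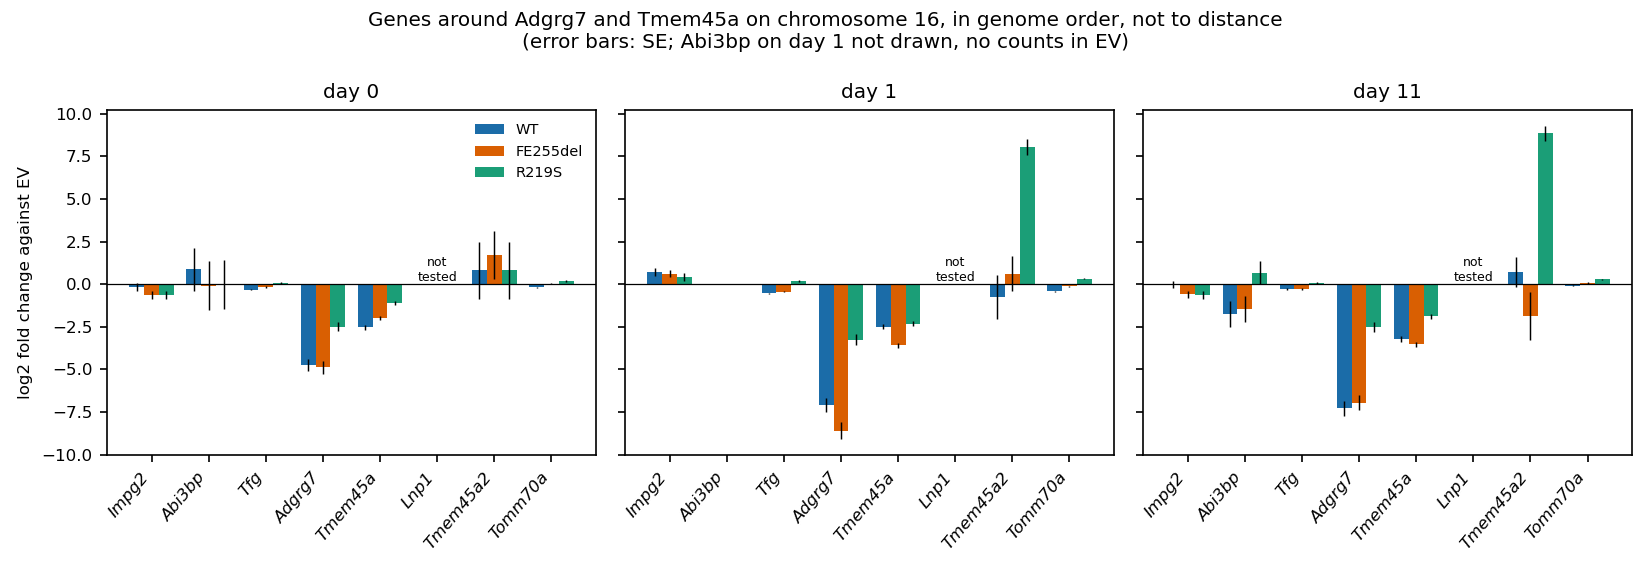
Log2 fold change against EV (y axis, error bars SE) of the genes around Adgrg7 and Tmem45a on chromosome 16, in genome order and not to distance, in WT (blue), FE255del (orange) and R219S (green) on days 0, 1 and 11. Adgrg7 and Tmem45a lie below 0 in every line on every day, and Tmem45a2 stands at 8.07 and 8.85 in R219S on days 1 and 11.

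Likeness of pattern was measured as Pearson's r over the 12 group means of log2 CPM, as a description, since the groups share constructs and days. The means include those of day 0, by which the members were chosen, so r between members partly restates that choice. Adgrg7 was most like Tmem45a (r = 0.931) and then Gsdmd (r = 0.930), the gasdermin D gene. Itih2 and Osbpl6 shared their nearest gene, F2r, the thrombin receptor (r = 0.978 and 0.967). F2r stood at 2.10 CPM for EV, 6.68 for WT, 5.30 for FE255del and 2.10 for R219S at day 0, and at 2.35, 16.96, 17.11 and 2.04 CPM on day 11. Plcb4 was most like Fermt2, an integrin-binding kindlin (r = 0.957), and Thnsl2 (r = 0.915). Dtna was closest to Zfp612 (r = 0.952) and Spdef, an ETS factor of secretory epithelium (r = 0.948). Spdef stood at 0.0681 CPM for EV, 4.24 for WT, 22.54 for FE255del and 0.0514 for R219S on day 1. The second gene was Slco4c1 for Itih2 (r = 0.955) and C1qtnf6 for Osbpl6 (r = 0.965). Sostdc1 was closest to Epha1 (r = 0.930) and Zfp369 (r = 0.919), Tmem45a to Tesk2 (r = 0.938) and Ptgs1 (r = 0.936), and Pygo1 to Stxbp6 (r = 0.953) and Dusp22 (r = 0.945). Among the members, Itih2 had r = 0.93 with Osbpl6 and with Dtna, and -0.95 with Adgrg7, while Pygo1 and Osbpl6 had r = -0.01.

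Relatives of each member were read from family lists. Of all genes tested, 60.5% passed for WT, 53.2% for FE255del and 48.5% for R219S on day 1, and 40.6%, 42.2% and 32.1% on day 11. The counts below stand beside these shares, and nothing particular to a family is drawn from them. Most single relatives are named in the construct with the smallest p, and the difference need not be particular to that construct. Of 26 other adhesion receptors, 18 were tested, and on day 1 more of them were lower than higher: 11 and 3 in WT (median log2 fold change -0.58, all genes -0.01), 10 and 1 in FE255del (-0.70, all genes -0.03) and 13 and 4 in R219S (-0.74, all genes -0.04). In WT Adgrb1 (-2.71 ± 0.06, adjusted p = 4.0e-27), Adgrg2 (-2.49 ± 0.06, adjusted p = 8.0e-27) and Adgrf4 (-2.51 ± 0.08, adjusted p = 2.4e-23) were lower. In the same order, they were also lower in FE255del (-2.21, -2.45 and -2.10) and in R219S (-2.23, -0.66 and -0.82). By day 11 the counts were 6 lower and 5 higher in WT, 6 and 3 in FE255del, and 7 and 5 in R219S. The receptor gene Adgrg2 was low in FE255del (-2.43 ± 0.06, adjusted p = 2.4e-26), and Adgrv1 was higher in R219S (2.91 ± 0.18, adjusted p = 2.9e-15).

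Among 15 tested antagonists of BMP and Wnt ligands other than Sostdc1, 6 were higher and 5 lower in WT on day 1, 5 and 8 in FE255del, and 3 and 6 in R219S. Their counts at day 11 were 3 and 6, 4 and 7, and 9 and 2. Fst, which encodes the activin antagonist follistatin, was lower in WT on day 1 (-3.14 ± 0.12, adjusted p = 1.9e-21), as was the Wnt deacylase gene Notum (-2.29 ± 0.13, adjusted p = 2.3e-17). Sfrp1, a secreted Wnt-binding protein, was higher in R219S (2.62 ± 0.08, adjusted p = 1.3e-23). Only 3 of 10 relatives of Itih2 were tested. Of these Hapln3, which links hyaluronan in the matrix, was higher in WT on day 1 (3.08 ± 0.45, adjusted p = 2.3e-07), and Itih4 had no counts in EV and 0.651 CPM in R219S on that day.

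In the phospholipase C and Gq list, 18 of 20 genes were tested, of which 5 were higher and 10 lower in WT on day 1, 4 and 7 in FE255del, and 5 and 9 in R219S. Gna14, a G protein alpha subunit that activates beta-class phospholipase C, was higher in WT by 6.39 ± 0.25 on day 1 (adjusted p = 2.6e-21) and 5.14 ± 0.25 on day 11 (adjusted p = 4.0e-18). Plcb1, 183752 bases from Plcb4 on the same chromosome, was lower in WT (-0.54 ± 0.15, adjusted p = 0.0021) and R219S (-0.66 ± 0.15, adjusted p = 3.9e-04) on day 1, with 0.21 ± 0.15 in FE255del (adjusted p = 0.243), where Plcb4 was higher in all 3. At day 0 Plcb1 lay above EV in WT (1.03 ± 0.15) and FE255del (0.87 ± 0.15), as Plcb4 did, and on day 11 it did not pass in any line. On day 11 that list had 4 higher and 8 lower in WT, 6 and 8 in FE255del, and 4 and 5 in R219S. Of 10 tested oxysterol-binding relatives of Osbpl6, 4 were higher and 5 lower in WT on day 1, 4 and 4 in FE255del, and 2 and 4 in R219S, with medians between -0.06 and -0.03. Osbpl10 was lower in R219S on day 1 (-1.21 ± 0.07, adjusted p = 2.9e-16).

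The dystrophin complex had 11 tested genes beside Dtna, of which 4 were higher and 4 lower in WT on day 1, 2 and 6 in FE255del, and 3 and 2 in R219S. Sntb1, a syntrophin that binds dystrobrevin, was higher in FE255del by 5.37 ± 0.29 on day 1 (adjusted p = 2.5e-17) and 3.16 ± 0.25 on day 11 (adjusted p = 8.2e-13). Dmd, the dystrophin gene, was lower in R219S on day 1 (-1.10 ± 0.07, adjusted p = 7.6e-16). All 21 genes of the Wnt transcription list were tested: 11 were higher and 9 lower in WT on day 1, 7 and 8 in FE255del, and 7 and 8 in R219S. Pygo2, the other pygopus gene, stood at 96.6 CPM in EV and 80.2 in R219S on day 1, a difference of -0.27 ± 0.05 (adjusted p = 5.4e-06). The Wnt target Axin2 was lower in FE255del on day 1 (-1.86 ± 0.05, adjusted p = 8.5e-25), and the TCF/LEF factor gene Lef1 was higher in R219S on day 11 (3.95 ± 0.28, adjusted p = 3.0e-13). On day 11 the Wnt list had 5 higher and 6 lower in WT, 7 and 7 in FE255del, and 9 and 5 in R219S.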

How the data were processed

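The deposited tables hold expected counts per gene, 1 table a library, and the values are whole numbers apart from rounding. The submitters' processing notes name the mm10 build, featureCounts (1.4.3) and STAR (2.4.2a). The strand setting and annotation release are not given in the sources used here. Of counts from 1 to 20, 69.7% were even (50.3% above 1000), so both reads of a pair seem to have been counted, and intervals and floors, which cover counting error only, are too narrow.

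The counts were rounded and fitted with edgeR 4.0.16 (R 4.3.3, limma 3.58.1) by its quasi-likelihood test over 12 group means, with TMM scaling (factors 0.938 to 1.08), a filter that left 18176 of 45232 genes, and Benjamini-Hochberg adjustment within a comparison at 0.05. Every adjusted p is from this test unless DESeq2 1.42.0 is named. SEs derive from the F statistic, and they are too small where a group has few counts. The steps were tested on simulated data. Named genes are the 8 members, their 3 nearest named neighbours on each side, the 2 genes of most alike pattern (mean CPM 1 or more), and up to 3 genes of each family list on day 1 and on day 11 by smallest p. Pygo2 was added outside this rule with its values known. The members and lists were chosen with earlier results of these data known. Replicate numbers do not pair the samples. Alternatives were other scalings and filters, DESeq2, fits of the compared groups only, a replicate block, halved counts and leaving out each library.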

Additional observations from a re-analysis of the deposited data

Results flagged for a closer look

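For 12 results the gap from EV changed between day 1 and day 11, by a test of that change over all genes (edgeR, adjusted p under 0.05). EV itself moved between these days for Sostdc1, Plcb4, Dtna and Tmem45a, among these genes. Pygo1 also passed in EV (adjusted p = 0.036), on 6 counts against none, a call that ended under 9 of 14 other settings. In WT the log2 change was 1.74 for Sostdc1 (adjusted p = 1.1e-04), -1.39 for Plcb4 (5.5e-05), -2.03 for Dtna (1.4e-08), -0.71 for Tmem45a (0.0040) and -0.54 for Osbpl6 (0.040). In FE255del it was 2.07 for Sostdc1 (1.6e-05), -1.64 for Plcb4 (9.4e-06) and -1.02 for Dtna (0.0011). In R219S it was -1.14 for Plcb4 (0.0014) and -1.55 for Osbpl6 (1.2e-04). The Pygo1 values, 4.69 in WT (adjusted p = 0.020) and 4.70 in FE255del (0.025), depend on the prior count, since EV had no counts on day 11, and are not fold changes to read as sizes. Both lost their call with counts halved, and the FE255del value also without any 1 of the 3 EV libraries of day 11. Whether the changes differ between WT, FE255del and R219S was not tested.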

How the results depend on the processing

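Of the results for single genes, 2178 kept their direction and side of the threshold under an alternative, 36 lost the call, 22 gained it and 36 changed sign, none of the last a called result. FE255del against WT on day 1 had 2 called members, 5 with DESeq2 and 4 with the compared groups only. The R219S gap had 2, and 2 to 4 without 1 library (4 without R219S day 11 replicate 1). The cause was not tested. Leaving out 1 library gave 6 to 7 members for R219S against EV on day 11 and 5 to 7 for R219S day 11 against day 1. The Osbpl6 gap in WT lost its call in 7 of 20 settings (adjusted p 0.0042 to 0.237), and that of Tmem45a in WT with the compared groups only (0.052). The Pygo1 gap lost it in WT with counts halved (0.057), and in FE255del in 4 of 20 settings: counts halved (0.070) and without EV day 11 replicate 1, 2 or 3 (0.058, 0.056 and 0.054).

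Signs changed for values near 0. Leaving out 1 library gave, for FE255del against WT on day 1, Sostdc1 -0.21 to 0.34 (-0.05 with counts halved) and Pygo1 -0.10 to 0.20, and on day 11 Adgrg7 -0.11 to 0.62, Tmem45a -0.52 to 0.06 and Pygo1 -0.30 to 0.49. For day 11 against day 1 it gave Itih2 -0.42 to 1.08 and Osbpl6 -0.04 to 0.39 in EV, and Tmem45a -0.18 to 0.02 in R219S. For the gaps it gave Adgrg7 in WT -0.47 to 0.19, Itih2 in FE255del -0.07 to 1.44, Tmem45a in FE255del -0.05 to 0.10 (-0.04 with total-count scaling) and Sostdc1 in R219S -0.11 to 0.11. The last was -0.02 with RLE scaling, DESeq2 or the compared groups only, -0.09 with total-count scaling, -0.03 without a filter and -0.00 with a stricter one.

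Over all genes, fitting the compared groups only moved R219S against EV on day 11 from 5833 to 3811 calls and FE255del against WT on day 11 from 3213 to 1722. Total-count scaling moved the share of higher calls for WT against EV on day 1 from 49% to 61% (median shift to 0.10), FE255del against EV on day 1 from 48% to 61%, R219S against EV on day 11 from 55% to 43%, R219S against WT on day 11 from 51% to 37%, R219S against FE255del on day 11 from 50% to 39%, the FE255del gap from 58% to 44% and the R219S gap from 57% to 36%. With the replicate number as a replicate block, members' counts were the same in every comparison (for example 8 for WT against EV on day 1) and counts over all genes moved by 1.00 to 1.03 times. Same-numbered libraries had a median correlation of deviations of 0.00 (-0.28 to 0.34), and 16 of 36 correlated best with their own number. Depth limits Itih2 in EV and R219S and Pygo1 outside R219S, with few counts. All 8 members passed the stricter filter, Pygo1 only through R219S libraries of days 1 and 11, and Itih2 only through WT and FE255del libraries. Passing it therefore says nothing about these genes in the groups where they had few counts.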
